A study of Mus musculus with 12 samples.

Results

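Hes1, Hes5, Hes6, Hey1, Hey2 and Heyl, basic helix-loop-helix (bHLH) repressors of the Hes and Hey families, were followed in mouse astrocytes, in spheres grown from them and in brain cell suspensions. The genes were taken by their names in the deposited expression table, and all 6 were present among its 55862 genes. The 12 samples fell into 4 groups of 3, all labelled C57BL/6, while the study's methods give C57BL/6J for the mice of the 2 suspensions. ASTs were primary cortical astrocytes of newborn mice, kept as a monolayer with serum and collected at 0 day of sphere culture. A-iSCs were such astrocytes after 5 days as spheres on agarose-coated dishes. P56-NPCs were a dissociated suspension of the subependymal zone of adult mice and P0-NPCs a dissociated suspension of the newborn hippocampus, both used by the study as positive controls for neural precursor cells (NPCs). None of the 4 groups carried a transgene or deletion that the labels name. No sort for precursor cells was described for either suspension, and the 2 suspensions differ in age and in brain region together. The labels do not say whether the 3 samples of a group came from separate animals or cultures, so p-values measure the spread between these samples, which may be technical.

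Hes and Hey proteins are the classical targets of Notch signalling. A ligand of the Delta or Jagged type on one cell activates a Notch receptor on its neighbour, the freed intracellular domain joins the DNA-binding protein RBPJ, and Hes and Hey genes are transcribed. Their products recruit corepressors of the Groucho/TLE family and keep proneural activators in check, which holds neural stem cells undifferentiated. Hes6 is the exception in the family, since it opposes Hes1 and favours neuronal differentiation.

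Several facts of the whole series bear on these genes. Between 17077780 and 24452419 fragments per sample could be recovered from the deposited values, and 3 fragments corresponded to 0.103 to 0.187 FPKM (a fragment count divided by gene length and by library size) for a gene of 1 kilobase. Mitochondrial genes took 16.54% to 17.63% of the fragments in P56-NPCs and 2.94% to 7.03% in the other samples. Markers of cells other than precursors were high in the suspensions: the 4 oligodendrocyte markers summed to 7850 to 8960 FPKM in P56-NPCs and to at most 9.03 FPKM in any sample of the other groups, and the 5 neuron markers summed to 744 to 919 FPKM in P0-NPCs and 188 to 228 FPKM in P56-NPCs. In ASTs the 5 astrocyte markers, each with a mean above 1 FPKM, summed to 111 to 126 FPKM. The 3 fibroblast markers summed to 131 to 178 FPKM there, of which Col1a1 made up 158 FPKM on average, with Dcn and Lum at 0.248 and 0.0374 FPKM. The group names are kept here as the study gives them.

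The 2 branches of the family differ at the end of the protein, where Hes proteins carry a short motif that binds Groucho/TLE and Hey proteins a related one. The last 45 coding bases of the longest complete coding sequence of each gene, read 5′ to 3′ from the GENCODE M21 transcripts, are shown to let the branches be compared. Capitals mark a run of 4 codons that opens with TGG, TAT or TAC, continues with any codon and then CCN, and closes with TGG, with the stop codon at the end in lower case.
Hes1: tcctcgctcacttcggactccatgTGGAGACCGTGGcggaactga
Hes5: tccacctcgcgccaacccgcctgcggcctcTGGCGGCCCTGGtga
Hes6: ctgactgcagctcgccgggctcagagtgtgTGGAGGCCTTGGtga
Hey1: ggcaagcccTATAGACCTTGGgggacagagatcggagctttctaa
Hey2: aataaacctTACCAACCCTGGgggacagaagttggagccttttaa
Heyl: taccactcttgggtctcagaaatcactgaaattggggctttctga
The run opened with TGG in the 3 Hes genes and with TAT or TAC in Hey1 and Hey2. It stood next to the stop codon in Hes5 and Hes6, 2 codons before it in Hes1 and 7 codons before it in Hey1 and Hey2. The Heyl coding sequence held 0 such runs.

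Promoter windows were given for 3 of the 6 genes, Hes5, Hes6 and Hey2, in the RefSeq sequences of GRCm38.p6, and Hes1, Hey1 and Heyl had no entry. The 250 bases before the start site are printed below to show where the core of the sequence that RBPJ recognises lies in them, and no relation of these letters to the levels was tested. Capitals mark this core, TTCCCAC, or GTGGGAA where it is read on the other strand.
Hes5, chr4:154960673-154960922, plus strand: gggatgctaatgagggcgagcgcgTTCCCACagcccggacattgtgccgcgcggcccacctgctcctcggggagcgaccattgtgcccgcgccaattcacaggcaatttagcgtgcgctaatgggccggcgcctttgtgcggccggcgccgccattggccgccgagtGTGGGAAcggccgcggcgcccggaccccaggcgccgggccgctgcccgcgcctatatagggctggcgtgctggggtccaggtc
Hes6, chr1:91414039-91414288, minus strand: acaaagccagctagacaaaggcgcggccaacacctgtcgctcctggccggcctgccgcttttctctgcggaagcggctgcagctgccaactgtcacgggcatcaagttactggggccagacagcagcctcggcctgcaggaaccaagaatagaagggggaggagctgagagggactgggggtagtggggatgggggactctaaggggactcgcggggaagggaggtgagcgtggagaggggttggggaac
Hey2, chr10:30842784-30843033, minus strand: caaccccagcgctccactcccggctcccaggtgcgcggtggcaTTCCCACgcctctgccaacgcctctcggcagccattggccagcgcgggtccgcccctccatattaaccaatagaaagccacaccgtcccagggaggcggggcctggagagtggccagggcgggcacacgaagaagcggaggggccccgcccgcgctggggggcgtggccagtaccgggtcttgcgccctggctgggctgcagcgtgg
Hes5 held 2 matches, from 226 to 220 and from 83 to 77 bases before its start site. Hey2 held 1 match within this stretch, from 207 to 201 bases before the start site, and a second that crossed the start site itself, shown here with 10 bases on either side.
Hey2, chr10:30842771-30842797, minus strand: gggctgcagcGTGGGAAagaacctcca
Neither the Hes6 window above nor that of its second start site held a match, which says only that these letters are not in these windows. Of 32851 windows of 250 bases in the same table, 5.42% held at least 1 match and 0.161% at least 2. With the first 50 transcribed bases included, the shares were 6.38% and 0.256%. The N-box CACNAG, a sequence that Hes proteins bind, was absent from the 3 printed windows, occurred 1 time in the window of the second Hes6 start site and was found in 36.7% of all windows of 250 bases. The E-box CACGTG, which Hey proteins can bind, was absent from all 4 windows and found in 6.02% of those in the table.

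**Figure D1:**
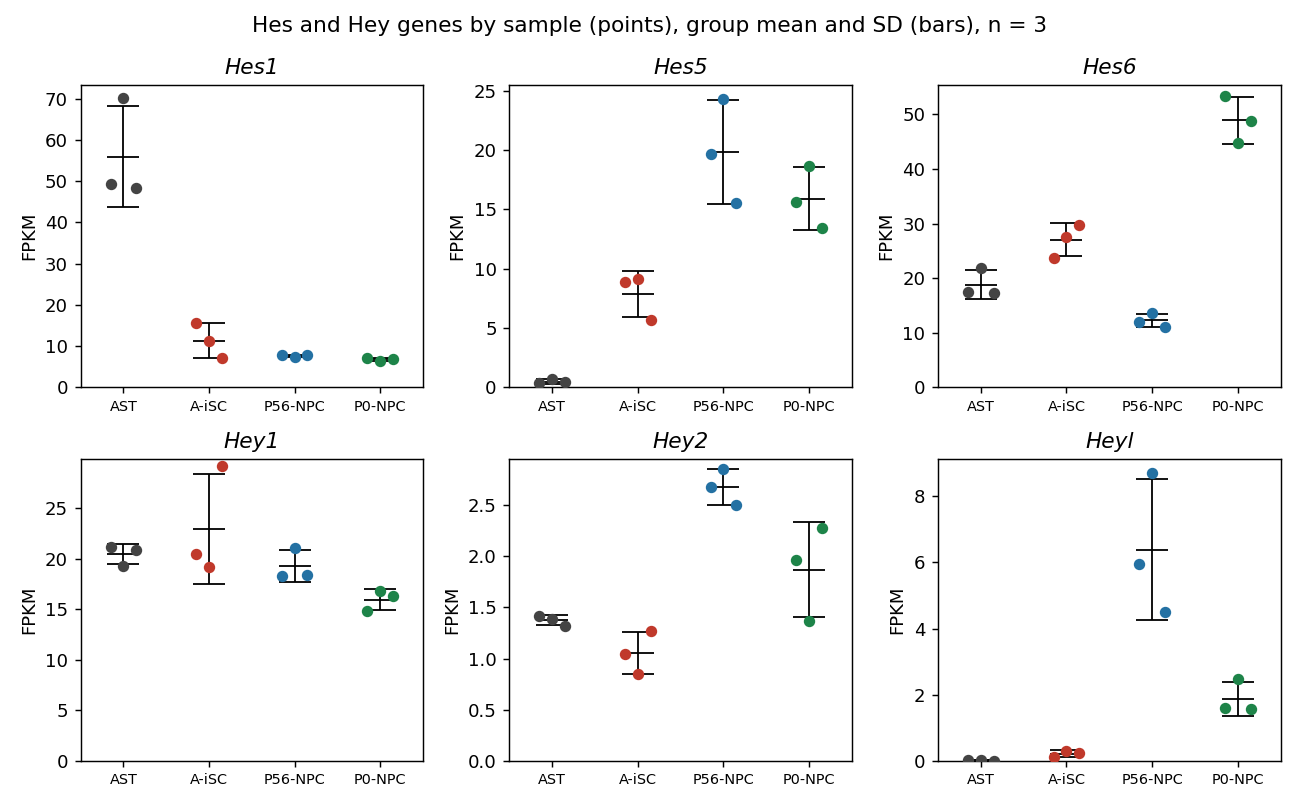
Levels of the 6 genes in FPKM on linear axes that start at 0, with 1 point per sample, and bars for the group mean and SD of 3 samples. Hes1 was high in the 3 AST samples (48.3 to 70.2 FPKM), Hes5 and Heyl were near 0 there, Hes6 stood highest in P0-NPCs (44.7 to 53.3 FPKM), and Hey1 lay between 14.8 and 29.2 FPKM in all 12 samples.

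Hes1, the Notch effector whose oscillating expression keeps progenitors uncommitted, was the leading family member of ASTs and low in the 3 other groups. Its gene lies at chr16:30064384-30067796 on the plus strand (GRCm38). The 3 AST samples measured 49.4, 70.2 and 48.3 FPKM. The A-iSC samples measured 15.5, 11.3 and 6.96 FPKM, the P56-NPC samples 7.75, 7.37 and 7.84 FPKM, and the P0-NPC samples 6.95, 6.31 and 6.86 FPKM. Every AST sample lay above every other sample, and A-iSC replicate 3 lay inside the range of the suspensions. Mean levels were 55.97 ± 12.3 FPKM for ASTs and 11.3 ± 4.25 FPKM for A-iSCs (SD, n = 3 each), a mean that was 4.98-fold lower in the spheres. All differences below are of mean log2(FPKM + 1), tested with limma across all genes that passed the filter, with Benjamini-Hochberg adjusted p-values. Hes1 fell by 2.26 ± 0.28 (SE, adjusted p = 0.000446) from ASTs to A-iSCs. The difference from ASTs was -2.70 ± 0.14 in P56-NPCs (adjusted p = 2.48e-06) and -2.87 ± 0.15 in P0-NPCs (adjusted p = 8.86e-07). As these are bulk samples, fewer cells that express a gene and less of its RNA per cell cannot be told apart, here or for the genes that follow.

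The lower 3 levels of Hes1 were close to each other. A-iSCs did not differ from P56-NPCs by the test, with overlapping samples and a difference of 0.44 ± 0.25 (limma adjusted p = 0.159), nor from P0-NPCs, with a difference of 0.61 ± 0.24 (adjusted p = 0.0568). Without A-iSC replicate 1, the sphere sample with the highest Hes1, the 2 differences were 0.19 (adjusted p = 0.423) and 0.36 (adjusted p = 0.149). Without A-iSC replicate 3, the sample with the lowest Hes1 among the spheres, both differences passed, at 0.72 (adjusted p = 0.00229) and 0.89 (adjusted p = 0.00056). Scaling by library size alone also brought the difference from P56-NPCs past the threshold (0.93, adjusted p = 0.0103), while relative to the median of all genes it was 0.41 under the scaling of the table and 0.44 under library size alone. The difference from P0-NPCs also passed with all 4 groups in the fit (adjusted p = 0.0255) and with the replicate block (adjusted p = 0.0455). P56-NPCs exceeded P0-NPCs by 0.17 ± 0.06 (adjusted p = 0.0433), a call that was lost when any 1 of the 6 samples was left out (0.13 to 0.19), under upper-quartile scaling (0.13, adjusted p = 0.12) and in limma-voom on the recovered fragments (0.20, adjusted p = 0.107), and that turned to -0.38 when fragments were scaled by library size alone. Along with Hes1, the 4 markers of cycling cells were highest in ASTs, with sums of 88.3 to 94.9 FPKM against 14.5 to 16.9 in A-iSCs, 5.21 to 8.15 in P56-NPCs and 33.0 to 42.8 in P0-NPCs. The 3 fibroblast markers summed to 131 to 178 FPKM in ASTs, 2.68 to 3.83 in A-iSCs, 1.25 to 5.74 in P56-NPCs and 51.1 to 57.5 in P0-NPCs. Of these only Col1a1 was highest in ASTs, while Dcn and Lum were highest in P0-NPCs, at 12 and 7.42 FPKM. The part of these cells in the Hes1 level was not tested.

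Hes5, the Notch effector most closely tied to neural stem cells, was lowest in ASTs and higher in the 3 other groups. The gene lies at chr4:154960923-154962371 on the plus strand (GRCm38), and the promoter printed above belongs to it. ASTs measured 0.306, 0.687 and 0.395 FPKM, which came from 7, 19 and 10 fragments. A-iSCs measured 8.85, 9.16 and 5.64 FPKM, P56-NPCs 19.7, 24.3 and 15.5 FPKM, and P0-NPCs 15.6, 18.7 and 13.4 FPKM. The lowest A-iSC sample was thus far above the highest AST sample, and every sample of the suspensions was above every A-iSC sample. The mean was 0.463 ± 0.199 FPKM for ASTs, 7.88 ± 1.95 for A-iSCs, 19.8 ± 4.39 for P56-NPCs and 15.9 ± 2.66 for P0-NPCs (SD, n = 3 each).

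From ASTs to A-iSCs, Hes5 rose by 2.59 ± 0.19 (SE) on the log2(FPKM + 1) scale (limma adjusted p = 4.2e-05). This scale understates a change from so low a level: with a pseudocount of 0.1 the difference was 3.85. The summed fragments, scaled as in the table, gave a ratio of 16.3 with a 95% interval of 11.7 to 23.4 for counting error only. P56-NPCs and P0-NPCs exceeded ASTs by 3.82 ± 0.17 (adjusted p = 1.01e-06) and 3.53 ± 0.14 (adjusted p = 3.01e-07). The spheres remained below both suspensions, by -1.23 ± 0.22 against P56-NPCs (adjusted p = 0.00216) and -0.94 ± 0.20 against P0-NPCs (adjusted p = 0.00353). Under library size alone the difference from P56-NPCs was -0.72 (adjusted p = 0.0174). Relative to the median of all genes it was -1.26 under the scaling of the table and -1.21 under library size alone. P56-NPCs and P0-NPCs had overlapping samples and a difference of 0.29 ± 0.17 (adjusted p = 0.149), and without P56-NPC replicate 3 this difference was 0.45 (adjusted p = 0.0285). It was 0.14 without P56-NPC replicate 2 (adjusted p = 0.431) and 0.18 without P0-NPC replicate 3 (adjusted p = 0.389). It turned to -0.30 (adjusted p = 0.125) under scaling by library size alone, and relative to the median of all genes it was 0.28 under the scaling of the table and 0.23 under library size alone.

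The antisense gene Gm20421 overlaps Hes5 over 756 bases, and it was not stated whether counting used the strand, so reads of the 2 genes may not have been separated. Gm20421 was listed at 0 fragments in the 3 AST samples and reached at most 0.125 FPKM in A-iSCs, 1.20 FPKM in P56-NPCs and 0.270 FPKM in P0-NPCs, all far below Hes5. Of the 5 astrocyte markers, 4 were also higher in A-iSCs than in ASTs by the test, and Gja1 was not called (24.8 FPKM in ASTs and 28.3 in A-iSCs). The sums were 111 to 126 FPKM in ASTs and 526 to 935 in A-iSCs, and P56-NPCs stood at 1660 to 1840 FPKM. P0-NPCs, with almost as much Hes5 as P56-NPCs, had an astrocyte sum of 167 to 199 FPKM. The 4 ependymal markers summed to 49.1 to 62.3 FPKM for ASTs, 59.6 to 71.7 for A-iSCs, 225 to 298 for P56-NPCs and 69.2 to 88.6 for P0-NPCs. Foxj1 was the largest part in ASTs and A-iSCs (43.3 and 44.3 FPKM). Between these groups, 2 of the 4 passed the test, each upward in the spheres, and 2 were uncalled. Ccdc153 had means of 0.315, 3.56, 60.8 and 3.48 FPKM in the same order of groups. Those of Tmem212 were 0.0251, 2.0, 96.4 and 1.57 FPKM, with 3 fragments or fewer over the AST group. The 5 microglia markers were all higher in A-iSCs than in ASTs by the test, and their sums were 20.1 to 23.8 FPKM in ASTs, 193 to 246 in A-iSCs, 231 to 240 in P56-NPCs and 23.0 to 31.2 in P0-NPCs. Of the 3 oligodendrocyte precursor markers, Pdgfra and Sox10 were higher and Cspg4 was lower in A-iSCs than in ASTs, with sums of 3.48 to 3.73 FPKM in ASTs, 17.5 to 19.4 in A-iSCs, 88.2 to 106 in P56-NPCs and 12.5 to 15.4 in P0-NPCs. The part of these cells in the Hes5 level was not tested.

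The level of Hes5 relative to Hes1 was also taken within each sample, where the scaling between samples cancels. Hes5 was 0.0062, 0.00979 and 0.00817 times Hes1 in the 3 AST samples. In A-iSCs the ratio was 0.572, 0.810 and 0.810, so Hes1 remained the higher of the pair in each sphere sample. It was 2.54, 3.30 and 1.98 in P56-NPCs and 2.25, 2.96 and 1.95 in P0-NPCs, so Hes5 was the higher in every suspension sample. The gap between A-iSCs and ASTs, in log2 of the ratio 4.84 with 1 FPKM added to both genes and 6.51 with no pseudocount, rests on the few Hes5 fragments of ASTs given above. It follows from Hes1 and Hes5 having moved in opposite directions and is given with no test. The ratio was lower in A-iSCs than in P56-NPCs and P0-NPCs without overlap. These differences were -1.67 and -1.55 in log2 with 1 FPKM added to both genes, and -1.82 and -1.70 with no pseudocount, each with p = 0.1 in a two-sided exact permutation test, the smallest p that 3 against 3 samples allow. P56-NPCs and P0-NPCs overlapped, with a difference of 0.13 with 1 FPKM added (exact permutation p = 0.6) and 0.12 without (exact permutation p = 0.7).

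**Figure D2:**
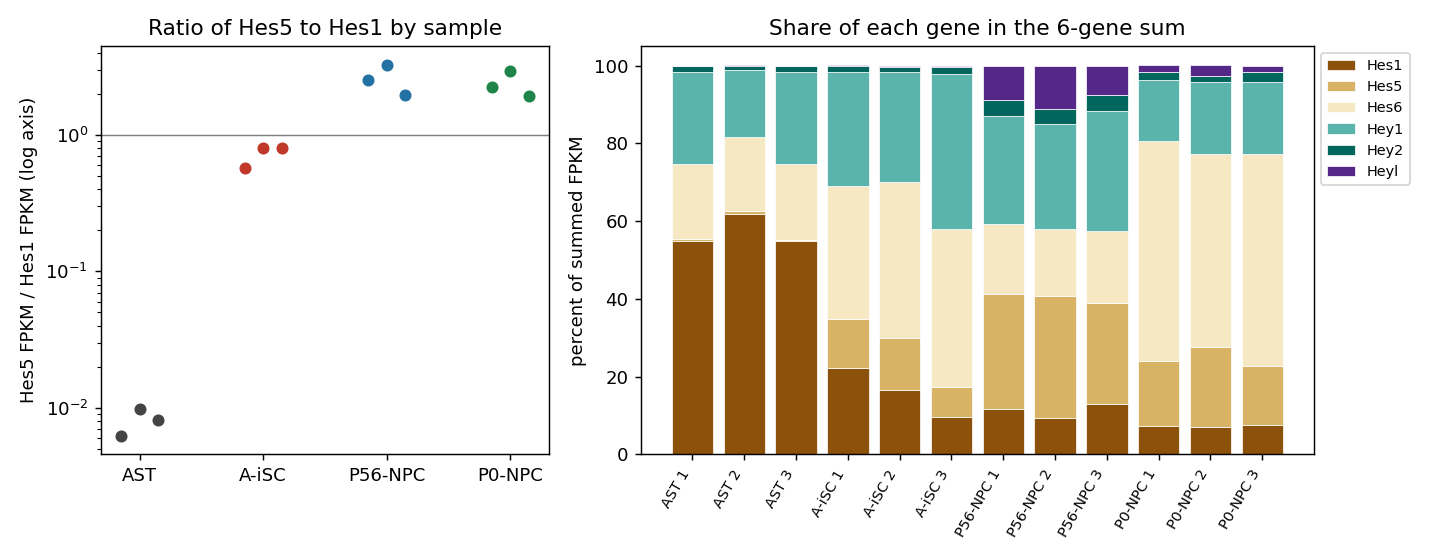
Left, Hes5 FPKM divided by Hes1 FPKM in each of the 12 samples on a log axis, with a line at equal levels; right, the percent of the summed FPKM of the 6 genes that each gene took in each sample. The ratio lay below 0.01 in ASTs, below 1 in A-iSCs and above 1 in both suspensions, and the largest share belonged to Hes1 in each AST sample and to Hes6 in each P0-NPC sample.

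Hes6, the member that favours neuronal differentiation, was highest in P0-NPCs and lowest in P56-NPCs, so it did not follow either Hes1 or Hes5. The gene lies at chr1:91411483-91414038 on the minus strand (GRCm38). ASTs measured 17.4, 21.8 and 17.2 FPKM and A-iSCs 23.7, 27.6 and 29.8 FPKM. P56-NPCs measured 12, 13.5 and 11.1 FPKM and P0-NPCs 53.3, 44.7 and 48.8 FPKM. The 4 groups did not overlap in any pair. The mean was 18.8 ± 2.60 FPKM for ASTs, 27.1 ± 3.07 for A-iSCs, 12.2 ± 1.19 for P56-NPCs and 49.0 ± 4.32 for P0-NPCs (SD, n = 3 each).

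The widest gap was between the 2 suspensions, where P56-NPCs were lower than P0-NPCs (log2(FPKM + 1) difference -1.92 ± 0.09, limma adjusted p = 1.04e-06). Hes6 in P0-NPCs exceeded that in ASTs by 1.34 ± 0.12 (adjusted p = 1.87e-05), and the difference of P56-NPCs from ASTs was -0.58 ± 0.11 (adjusted p = 0.00256). A-iSCs lay between, with 1.08 ± 0.12 against P56-NPCs (adjusted p = 0.000235) and -0.83 ± 0.13 against P0-NPCs (adjusted p = 0.000731). The rise of 0.51 ± 0.14 from ASTs to A-iSCs passed the test with an adjusted p of 0.0198 and was the least firm of these calls. It was lost under upper-quartile scaling (0.38, adjusted p = 0.0609), without A-iSC replicate 2 (0.49, adjusted p = 0.0633) and without AST replicate 1 or 3 (0.45 each, adjusted p = 0.0818 and 0.082). The 4 neuroblast markers summed to 107 to 125 FPKM in ASTs, 120 to 180 in A-iSCs, 60.7 to 64.5 in P56-NPCs and 427 to 504 in P0-NPCs. Of these, Cd24a had the order of Hes6, with means of 104, 124, 43.6 and 269 FPKM, and it was the larger part of each of these sums. Dcx was lowest in ASTs (0.0833 FPKM) and highest in P0-NPCs (88.1 FPKM), Sox11 was at 87.7 FPKM in P0-NPCs and at most 6.40 in the mean of another group, and Dlx2 lay between 6.52 and 9.71 FPKM in all 4 means. The 5 neuron markers summed to 88.1 to 124, 47.4 to 63.4, 188 to 228 and 744 to 919 FPKM in the same order of groups. Tubb3 was the largest part in P0-NPCs (634 FPKM), and Stmn2 fell from 53.8 FPKM in ASTs to 7.16 in A-iSCs. Map2 and Snap25 were higher in P56-NPCs (71.1 and 33.7 FPKM) than in P0-NPCs (41.7 and 14.9). By the test, 2 of the 5 were higher, 2 lower and 1 uncalled in P56-NPCs against P0-NPCs. The part of neuroblasts and neurons in the Hes6 level was not tested.

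Hey1, a Notch effector of neural progenitors and of the vessel wall, was the most even member. The gene lies at chr3:8663359-8667256 on the minus strand (GRCm38). ASTs measured 21.2, 19.3 and 20.9 FPKM, A-iSCs 20.5, 19.2 and 29.2 FPKM, P56-NPCs 18.3, 21.1 and 18.4 FPKM, and P0-NPCs 14.8, 16.8 and 16.3 FPKM. A single sample, A-iSC replicate 3, stood above the rest, and the 3 P0-NPC samples were the lowest of the 12. ASTs did not differ by the test from A-iSCs (0.13 ± 0.17, limma adjusted p = 0.526) or from P56-NPCs (-0.09 ± 0.08, adjusted p = 0.365), and neither did A-iSCs and P56-NPCs differ (0.22 ± 0.17, adjusted p = 0.287). Leaving out A-iSC replicate 3 turned the first of these differences to -0.04.

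P0-NPCs had less Hey1 than ASTs, with a difference of -0.34 ± 0.09 (limma adjusted p = 0.00641), but scaling by library size alone took it to -0.07 (adjusted p = 0.493). A-iSCs exceeded P0-NPCs by 0.48 ± 0.16 (adjusted p = 0.0343), and the call was lost with library size alone (0.41, adjusted p = 0.0576) and without P0-NPC replicate 1, 2 or 3 (0.43, 0.51 and 0.49). P56-NPCs exceeded P0-NPCs by 0.26 ± 0.08 (adjusted p = 0.0189), which turned to -0.34 with library size alone and was lost without P56-NPC replicate 2 (0.19) or P0-NPC replicate 1 (0.21). Against P56-NPCs, library size alone also brought differences past the threshold for ASTs (P56-NPCs lower, -0.41, adjusted p = 0.00252) and for A-iSCs (0.75, adjusted p = 0.00459). Upper-quartile scaling did so for ASTs as well (-0.23, adjusted p = 0.0305). The 2 scalings moved the median of all genes by up to 0.54 in these comparisons, from 0.01 to -0.53 between P56-NPCs and P0-NPCs. Relative to that median, Hey1 was 0.25 higher in P56-NPCs than in P0-NPCs under the scaling of the table and 0.19 higher under library size alone. In the same way, the differences from ASTs were -0.27 and -0.28 in P0-NPCs and -0.06 and -0.07 in P56-NPCs, and A-iSCs differed from P56-NPCs by 0.19 and 0.26 and from P0-NPCs by 0.50 under both.

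Hey2, best known from heart and artery development, was low in all 4 groups. The gene lies at chr10:30832359-30842801 on the minus strand (GRCm38). ASTs measured 1.42, 1.39 and 1.32 FPKM and A-iSCs 1.04, 0.852 and 1.27 FPKM. P56-NPCs measured 2.68, 2.85 and 2.50 FPKM and P0-NPCs 1.96, 1.37 and 2.28 FPKM. The P56-NPC samples were the 3 highest of the 12 and the A-iSC samples the 3 lowest. P56-NPCs exceeded ASTs by 0.63 ± 0.07 (limma adjusted p = 0.000153), and A-iSCs lay below P56-NPCs (-0.85 ± 0.11, adjusted p = 0.000547). Under library size alone these were 0.38 (adjusted p = 0.00164) and -0.49 (adjusted p = 0.00593). Relative to the median of all genes, the first was 0.66 under the scaling of the table and 0.72 under library size alone. The second was -0.88 and -0.98 in the same order.

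The other Hey2 differences were small or unsteady. A-iSCs and ASTs did not overlap, but the difference of -0.22 ± 0.12 missed the threshold (limma adjusted p = 0.16) and passed it without A-iSC replicate 3 (-0.29, adjusted p = 0.0411). P0-NPCs and ASTs overlapped through P0-NPC replicate 2, with a difference of 0.26 ± 0.13 (adjusted p = 0.096), which passed without that sample (0.39, adjusted p = 0.00832) and with library size alone (0.45, adjusted p = 0.0143). Without P0-NPC replicate 3 the difference was 0.16 (adjusted p = 0.279). Library size alone moved the median of all genes by 0.28 in that comparison, and relative to it Hey2 was 0.33 higher under the scaling of the table and 0.24 higher under library size alone. A-iSCs were below P0-NPCs by the test (-0.48 ± 0.15, adjusted p = 0.0262), a call lost without A-iSC replicate 1 or 2 or without P0-NPC replicate 1 or 3 (-0.47, -0.40, -0.45 and -0.37). P56-NPCs exceeded P0-NPCs by 0.37 ± 0.13 (adjusted p = 0.0273), lost without P56-NPC replicate 1 or 2 (0.37 and 0.34) and turned to -0.06 under library size alone. Relative to the median of all genes, this last difference was 0.36 under the scaling of the table and 0.47 under library size alone.

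Heyl, a Notch target known from the smooth muscle cells and pericytes of vessels, spanned the widest range as a ratio of FPKM, which rests on 4 fragments in ASTs. On the log2(FPKM + 1) scale Hes5 spanned more, with 3.82 against 2.82 for Heyl between P56-NPCs and ASTs. The gene lies at chr4:123233556-123249875 on the plus strand (GRCm38). ASTs held 1, 2 and 1 fragments (0.0117, 0.0193 and 0.0105 FPKM). A-iSCs held 12, 37 and 33 fragments (0.116, 0.304 and 0.241 FPKM). P56-NPCs measured 5.94, 8.70 and 4.5 FPKM and P0-NPCs 1.60, 2.48 and 1.57 FPKM. The 4 groups did not overlap in any pair, and the order ran from ASTs through A-iSCs and P0-NPCs to P56-NPCs.

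Against the 4 AST fragments in all, the ratio of P56-NPCs was 452 with a 95% counting interval of 176 to 1660 and that of P0-NPCs 136 with an interval of 52.8 to 500. The ratio of A-iSCs to ASTs was 16.1 (6.06 to 60.6). Heyl did not reach a mean of 1 FPKM in either group of that pair and so was not tested in it. With no filter on low values the limma difference was 0.26 ± 0.06 (adjusted p = 0.0195). P56-NPCs exceeded ASTs by 2.82 ± 0.19 (limma adjusted p = 8.71e-06), A-iSCs were lower than P56-NPCs (-2.56 ± 0.21, adjusted p = 4.4e-05) and P56-NPCs exceeded P0-NPCs by 1.33 ± 0.21 (adjusted p = 0.000685). P0-NPCs exceeded ASTs by 1.49 ± 0.13 (adjusted p = 2.04e-05), and A-iSCs were lower than P0-NPCs (-1.23 ± 0.15, adjusted p = 0.00023). With a pseudocount of 0.1 P56-NPCs exceeded ASTs by 5.78 and P0-NPCs exceeded them by 4.09.

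The summed vessel markers had another order of groups than Heyl. The 5 mural markers summed to 9.89 to 12.6 FPKM in ASTs, with Kcnj8 and Abcc9 at 3 fragments or fewer over the group, to 3.14 to 4.23 in A-iSCs, 7.01 to 9.46 in P56-NPCs and 54.0 to 62.6 in P0-NPCs. The 5 endothelial markers summed to 2.90 to 3.78 FPKM in ASTs, where Cldn5 was at 0, to 1.19 to 2.10 in A-iSCs, 2.69 to 3.33 in P56-NPCs and 69.6 to 71.0 in P0-NPCs. Rgs5 and Pdgfrb made up most of the mural sum in P0-NPCs (38.6 and 12.2 FPKM), and Myh11 of the same list ran from 0.0303 to 1.81 FPKM among the P56-NPC samples and from 0.0723 to 0.234 in P0-NPCs. The oligodendrocyte sum, 7850 to 8960 FPKM in P56-NPCs, was 5.75 to 6.97 in P0-NPCs, 8.31 to 9.03 in A-iSCs and 0.668 to 0.864 in ASTs, and the part of these cell types in the Heyl level was not tested.

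**Figure D3:**
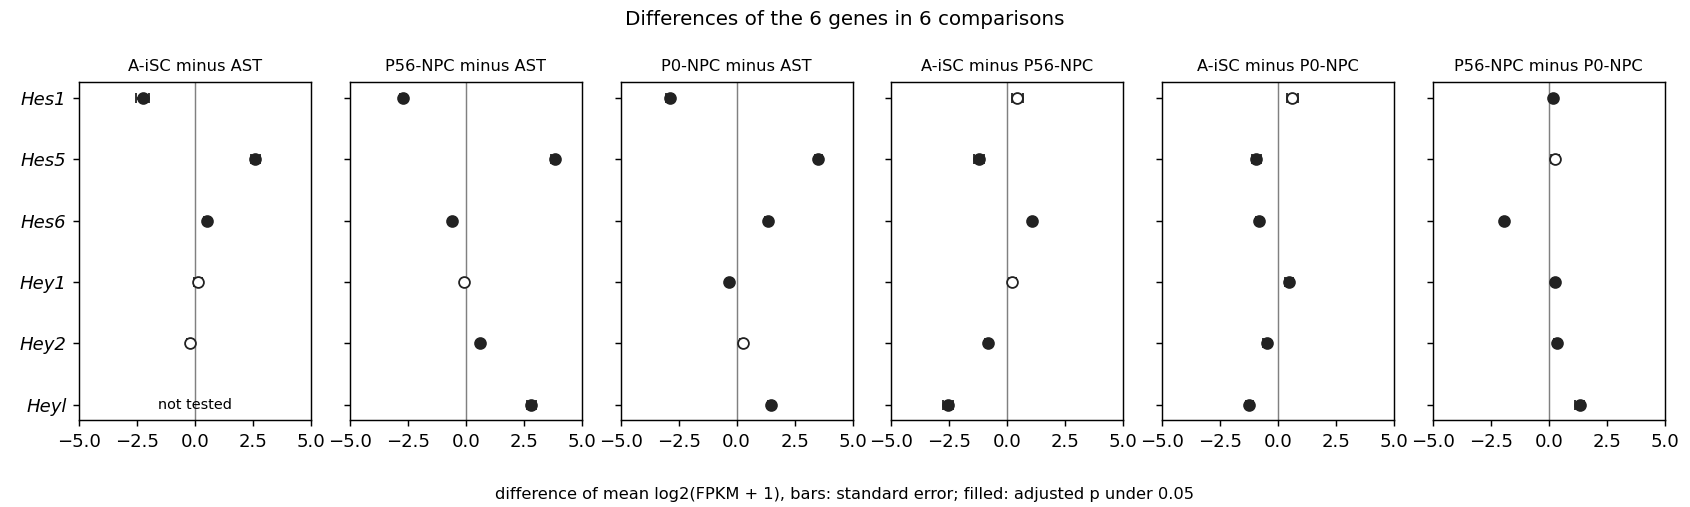
Differences of mean log2(FPKM + 1) for the 6 genes in each of 6 comparisons, with the standard error as bars and filled points for an adjusted p under 0.05 in limma. Hes1 and Hes5 lie on opposite sides of 0 in the 3 comparisons with ASTs, and Hey1 stays within 0.48 of 0 in all 6; Heyl was not tested between A-iSCs and ASTs.

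Counted together, the members passed the test about as often as other genes, since most genes differed between these groups. Between A-iSCs and ASTs, 3 of the 5 tested members were called, where 54.8% of all 14087 tested genes were called. Of these members 2 were higher (25.2% of all genes) and 1 was lower (29.6% of all genes) in A-iSCs. Against ASTs, 5 of 6 members were called in P56-NPCs (78.9% of all genes), with 3 higher (39.1% of all genes) and 2 lower (39.8%). In P0-NPCs 5 of 6 were also called against ASTs (79% of all genes), with 3 higher (38.1%) and 2 lower (40.9%). A-iSCs differed from P56-NPCs in 4 of 6 members (61% of all genes), 1 of them higher (30.1%) and 3 lower (30.9%). They differed from P0-NPCs in 5 of 6 (65.1% of all genes), 1 of them higher (31.5%) and 4 lower (33.6%). P56-NPCs and P0-NPCs differed in 5 of 6 members (78.8% of all genes), with 4 higher (39.7%) and 1 lower (39%) in P56-NPCs. Of the 4 higher ones, Hes1, Hey1 and Hey2 changed sign under library size alone, which moved the median of all genes from 0.01 to -0.53, and Heyl did not. Relative to that median, Hes1 was 0.16 higher under the scaling of the table and 0.15 higher under library size alone, and Hey1 and Hey2 also stayed higher, as given above. The median difference of the tested members was 0.13, 0.27, 0.80, -0.32, -0.66 and 0.28 in the 6 comparisons as ordered here, beside -0.06, -0.03, -0.07, 0.03, -0.02 and 0.01 for all tested genes. Comparisons that share a group share its samples.

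The summed level of the 6 genes changed less than its make-up. The sum was 97.1 ± 14.2 FPKM in ASTs, 70.4 ± 2.39 in A-iSCs, 68.1 ± 9.10 in P56-NPCs and 91.3 ± 2.63 in P0-NPCs (SD, n = 3 each). Hes1 took 57.2% ± 4.03 of the sum in ASTs and 16.1% ± 6.35 in A-iSCs, where Hes6 held 38.4% ± 3.74 and Hey1 32.5% ± 6.52. In P56-NPCs, Hes5 with 28.9% ± 2.71 and Hey1 with 28.5% ± 1.94 led together. In P0-NPCs, Hes6 took 53.6% ± 3.69, and Hes1 was down to 7.35% ± 0.355. The ratio of Hes6 to Hes5 did not separate A-iSCs from P0-NPCs (log2 difference 0.11, exact permutation p = 0.8), while both exceeded P56-NPCs without overlap (exact p = 0.1, for A-iSCs by 2.32). The ratio of Hey1 to Hes1 exceeded that of ASTs by 2.39 in A-iSCs without overlap, which the fall of Hes1 carries, and overlapped between A-iSCs and either suspension (exact permutation p = 0.8 and 0.9).

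The genes that act above and beside the Hes and Hey repressors were taken from 10 lists of 64 genes in all. Between A-iSCs and ASTs, 50 were tested, of which 16 were higher and 7 lower, so that 46.0% were called against 54.8% of all genes. Among the Notch ligands the 3 tested genes were all called. Dll1 rose from 1.07 ± 0.065 to 4.66 ± 0.189 FPKM (difference 1.45, limma adjusted p = 2.78e-05) and Dll3 from 0.240 ± 0.0124 to 1.71 ± 0.253 FPKM (1.12, adjusted p = 2e-04). Jag1, the leading ligand of ASTs, fell from 9.21 ± 0.786 to 5.67 ± 0.424 FPKM (-0.61, adjusted p = 0.00297). Of the receptors, 0 of 3 tested by limma passed the adjusted threshold, with Notch1 at 8.05 ± 2.57 FPKM in ASTs and 8.30 ± 3.67 in A-iSCs. Notch2 was at 6.84 ± 1.60 and 10.5 ± 3.14 FPKM without overlap, and Notch3 at 5.23 ± 1.90 and 4.26 ± 1.52. With so wide a spread, a missing call does not show equal levels. The nuclear complex that RBPJ forms had 0 of 5 tested genes called, with Rbpj itself at 6.15 ± 1.18 and 5.28 ± 1.34 FPKM. In both lists 0 genes had an unadjusted p under 0.05 and 0 were called by limma-voom. Among the 14 genes of Notch processing and modification, 5 were higher and 2 lower, and the higher ones included the 3 Fringe glycosyltransferases that modify the receptor, Mfng (2.09, adjusted p = 2.51e-05), Lfng (0.70, adjusted p = 0.021) and Rfng (0.78, adjusted p = 0.00874). Lfng lost its call without A-iSC replicate 2 (0.73) or AST replicate 2 (0.60).

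The Notch antagonists held 3 higher (25.2% of all genes), 1 lower (29.6%) and 3 uncalled genes between A-iSCs and ASTs. Thus 57.1% of this list were called, near the 54.8% of all genes. Nrarp, a feedback inhibitor that Notch itself induces, was at 0.515 ± 0.121 FPKM in ASTs, 1.64 ± 1.01 in A-iSCs, 12.3 ± 2.10 in P56-NPCs and 6.53 ± 0.548 in P0-NPCs. Its differences from ASTs were 0.74 (limma adjusted p = 0.0409), 3.13 (adjusted p = 7.31e-07) and 2.31 (adjusted p = 4.22e-07). The A-iSC call was lost under upper-quartile scaling (0.68, adjusted p = 0.0517), on leaving out A-iSC replicate 2 (0.82) and without AST replicate 1, 2 or 3 (0.77, 0.77 and 0.67). Hes5, Heyl and Nrarp had the same order of group means, from ASTs through A-iSCs and P0-NPCs to P56-NPCs, although Hes5 did not differ between the suspensions by the test and changed sign between them under library size alone (-0.30). Lfng, Mib2, Tle4 and Dtx1 of these lists had this order too, so it is not particular to those genes. Of the 8 tested genes in the list of Groucho/TLE and other corepressors, 62.5% were called between A-iSCs and ASTs, against 54.8% of all genes. The 3 higher in A-iSCs (25.2% of all genes) were Tle1, Tle2 and Tle4 (0.91, 1.0 and 1.0). The 2 lower (29.6% of all genes) were Tle5, a shortened family member, and Hdac1 (-0.77 and -0.57), and 3 were uncalled. The call of Tle5 was lost under library size alone (-0.55, adjusted p = 0.108) and when A-iSC replicate 2 or 3 or any 1 AST replicate was left out (-0.87 to -0.51), and that of Hdac1 under library size alone (-0.36, adjusted p = 0.0685) and without AST replicate 1 (-0.55).

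**Figure D4:**
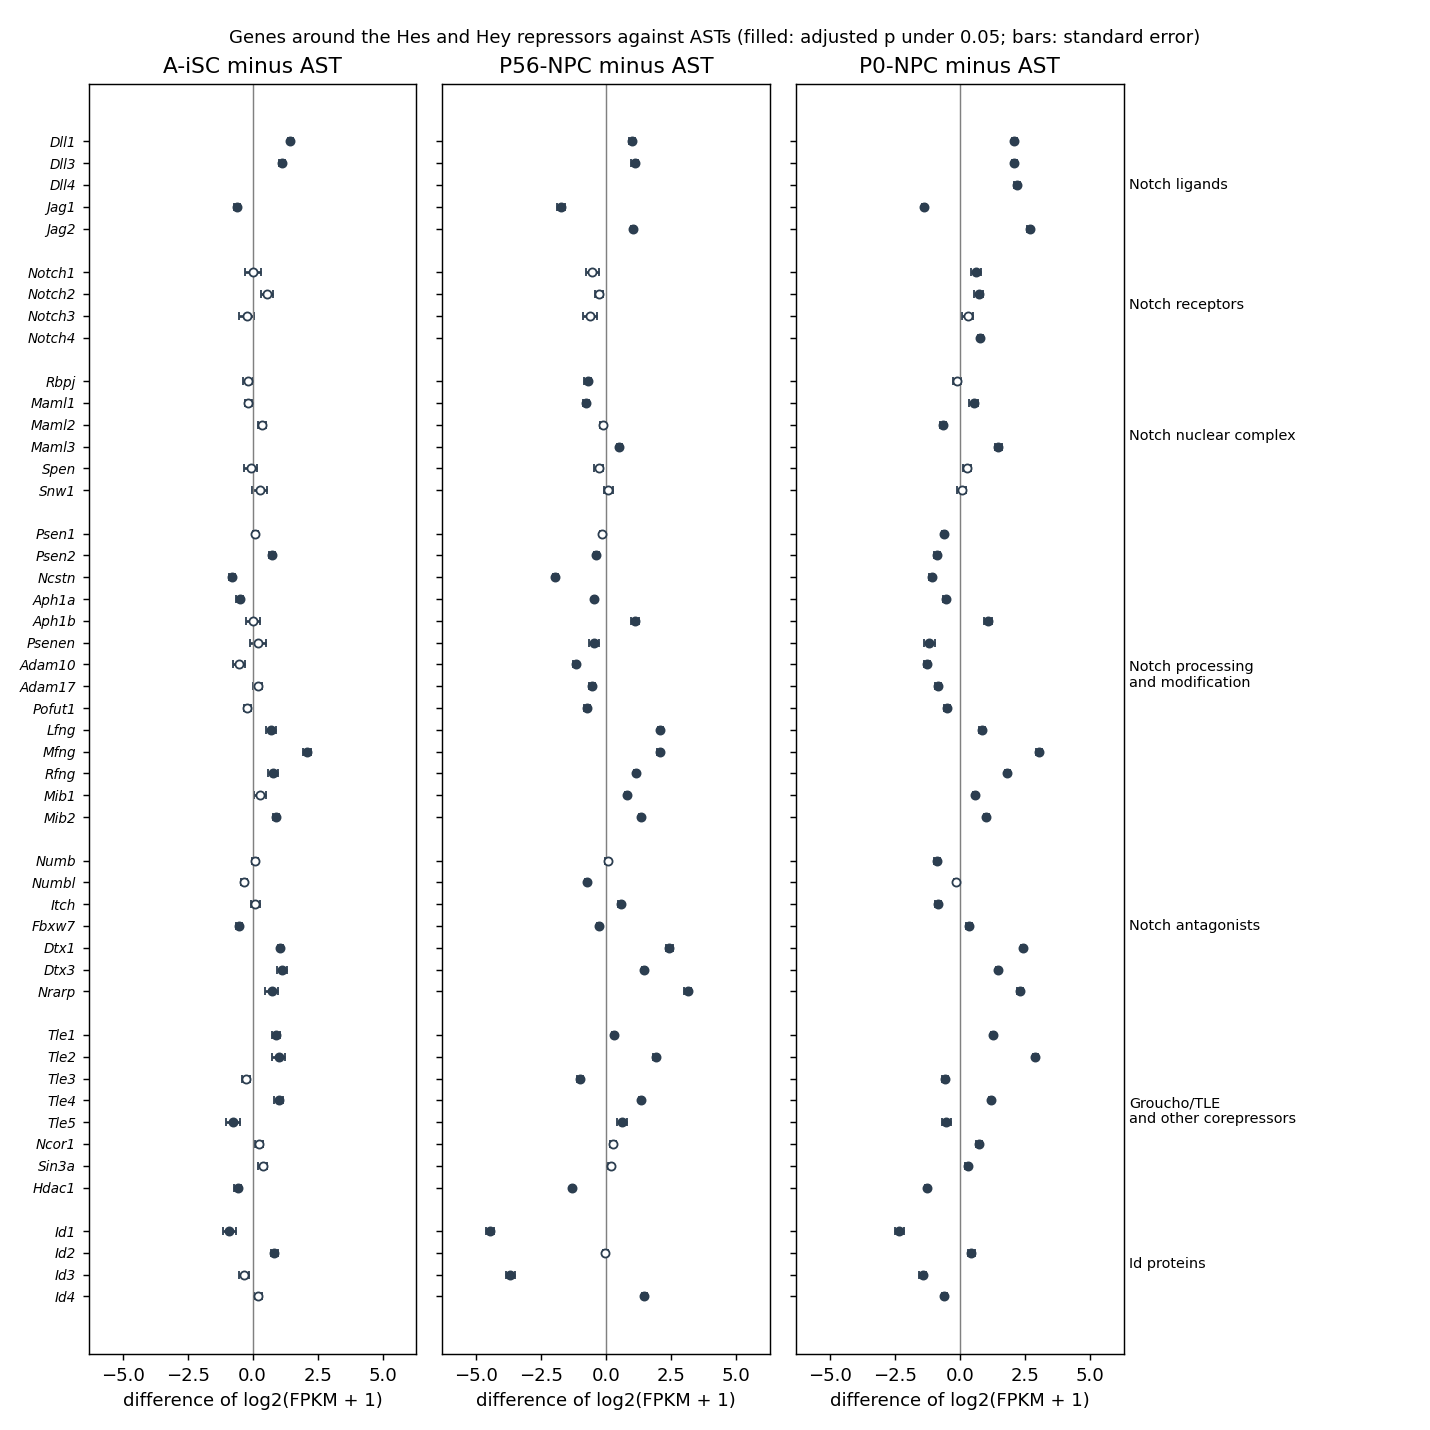
Differences from ASTs of mean log2(FPKM + 1) for genes of 7 lists around the Hes and Hey repressors, in A-iSCs, P56-NPCs and P0-NPCs, with the standard error as bars and filled points for an adjusted p under 0.05 in limma; a gene without a point was not tested there. Jag1 lies left of 0 and Dll1 and Dll3 right of 0 in all 3 panels, and Mfng is at 2.09 in A-iSCs.

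In the suspensions more of the lists differed from ASTs, as did more of all genes. In P56-NPCs 21 of 52 tested genes were higher and 18 lower, so that 75.0% were called against 78.9% of all genes. In P0-NPCs 32 of 57 were higher and 20 lower, so that 91.2% were called against 79% of all genes. Jag1 was lower in both (-1.74, limma adjusted p = 3e-05, and -1.38, adjusted p = 2.96e-06), and Dll1 higher in both (0.99 and 2.09). Jag2, the other Jagged ligand, was also higher in both (1.02, adjusted p = 2.27e-05, and 2.68, adjusted p = 3.3e-07), at 0.512 FPKM in ASTs, 2.06 in P56-NPCs and 8.70 in P0-NPCs, and it was not tested between A-iSCs (0.522 FPKM) and ASTs. Dll4, the ligand of sprouting vessels, was tested in P0-NPCs alone, at 3.79 ± 0.467 FPKM against 0.038 ± 0.011 in ASTs. The receptors had 0 of 3 called in P56-NPCs by limma, 0 at an unadjusted p under 0.05 and 0 by limma-voom, with Notch3 at 2.99 FPKM against 5.23 in ASTs (-0.62, adjusted p = 0.0792). In P0-NPCs 3 of 4 receptors were higher.

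Among the proneural activators, Neurog2 and Neurod1 reached 14.0 ± 2.63 and 66.1 ± 6.98 FPKM in P0-NPCs, the group with the highest Hes6, and at most 0.699 and 0.307 FPKM in any other sample. The Id proteins, which block bHLH activators by binding their partners, had Id1 lower (-0.89, adjusted p = 0.0236) and Id2 higher (0.84, adjusted p = 0.00107) in A-iSCs than in ASTs, with Id3 and Id4 uncalled. Id1 missed the threshold under library size alone (-0.67, adjusted p = 0.0528) and on leaving out replicate 2 of A-iSCs (-0.94) or of ASTs (-0.69). In P56-NPCs, Id1 and Id3 were lower by far (-4.46 and -3.68) and Id4 higher (1.46). Of the other repressors of the same protein class, Hes2, Hes3, Hes7 and Helt stayed below 1 FPKM in every sample. Bhlhe40 and Bhlhe41 did not differ by the test between A-iSCs and ASTs (0.00 and -0.02, adjusted p = 0.981 and 0.92), and Bhlhe41 was lower in P0-NPCs (-2.66, adjusted p = 4.27e-07).

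The genes whose profile over the 12 samples lay nearest to each member, by the root mean square (RMS) difference of centred log2(FPKM + 1) among 13654 other protein-coding genes, differed from member to member. Nearest to Hes1 were Lce1g, Klhl30 and Cst6, with RMS differences of 0.190, 0.199 and 0.203. Lce1g and Klhl30 were at 6.69 and 6.47 FPKM in ASTs and at most 0.593 in another group mean. Hes1 kept means of 6.707 to 11.25 FPKM outside ASTs, so their folds are unlike, and the added 1 FPKM brings them near. Among those nearest to Hes5 were Gpr162 (0.320) and the ciliary gene Tekt1 (0.325). Hes6 had the histone gene H3f3b (0.210), Disp3 and Tmem131l. Hey1 had Helz (0.0888), Rnf115 and Npepps, and Hey2 had Carhsp1 (0.107), Ppm1a and Tsr2. Nearest to Heyl were Sh2d5 (0.155), Anks1b and Arpp21, the last a gene known from striatal neurons, at 6.60, 14.3 and 4.21 FPKM in P56-NPCs and 0.165, 0.746 and 0.0091 FPKM in ASTs. These distances are descriptions over 4 groups, so any gene with like differences between group means on this scale comes out near.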

How the data were processed

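RNA of 12 mouse brain-derived samples was sequenced, and the table that the authors deposited gives FPKM and gene lengths for 55862 genes. The submitters' processing notes name Bowtie 0.12.2 and the build mm8, the gene positions are those of GRCm38 (54899 of 55154 identifiers shared with GENCODE M21), and the role of an aligner is not given in the sources used here. FPKM multiplied by gene length gave whole multiples of 1 step per sample for 100% of values (tolerance 0.01), from which fragments were recovered. The values carried a scaling between samples of 0.744 to 1.218 times the counted total. Groups were compared 2 at a time, as in the study's methods, which name a count model. Because FPKM are not counts, limma 3.58.1 in R 4.3.3 (lmFit, eBayes with trend, two-sided) was run on log2(FPKM + 1) over genes with a mean of at least 1 FPKM in either group, with Benjamini-Hochberg adjustment over all genes and calls at an adjusted p under 0.05. Tested on simulated data for A-iSCs against ASTs with 13386 genes, 43 of 43 genes changed 0.25-fold, 48 of 52 changed 0.5-fold, 49 of 52 changed 2-fold and 53 of 53 changed 4-fold were called, beside 16 of 13186 unchanged ones. The simulation gave all genes the same dispersion and changed only these few genes. Its rates therefore do not give the power for genes that spread more widely between the samples here. The named genes were the 6 members, the listed pathway and marker genes and the 3 genes nearest to each member. Some of these genes are not reported here. The members and lists were chosen with earlier results of these data known. Replicate numbers were not used to pair the samples in the main fits, and whether they do pair them is not known. Alternatives were the scaling, filter, pseudocount, replicate block, all 4 groups in 1 fit, each replicate left out and, chosen after seeing the data, limma-voom on the recovered fragments and ratios without a pseudocount. Intervals and floors of 3 fragments cover counting error only. Python 3.11.15 with scipy 1.17.1 was used for ratios and sequences.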

Additional observations from a re-analysis of the deposited data

How the results depend on the processing

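Among the values of single members under an alternative, 405 kept their direction and side of the threshold, 32 lost a call, 13 gained one and 5 changed sign. Of these 5, Hes1 (-0.38), Hes5 (-0.30), Hey1 (-0.34) and Hey2 (-0.06) did so between P56-NPCs and P0-NPCs under scaling by library size alone, which also moved the median of all genes in that comparison by -0.54, and Hey1 (-0.04) between A-iSCs and ASTs without A-iSC replicate 3 (-0.04 to 0.24 with any replicate left out). Neither the Hes5 value nor this Hey1 value was called before or after the change. The count of called members changed by over 1.5 times in 2 comparisons. For A-iSCs against P0-NPCs the count was 3 with no filter on low values and 3 to 6 with a replicate left out, and for P56-NPCs against P0-NPCs it was 3 with no filter, 3 with all 4 groups in the fit and 2 to 5 with a replicate left out. Among the ratios, Hes5 to Hes1 between P56-NPCs and P0-NPCs reversed with a replicate left out (-0.05 to 0.30), as did Hes6 to Hes5 between A-iSCs and P0-NPCs (-0.16 to 0.28) and Hey1 to Hes1 between A-iSCs and P56-NPCs (-0.68 to 0.09) or P0-NPCs (-0.59 to 0.18), all with overlapping groups. With no filter, the calls lost were Hey1 and Hey2 between A-iSCs and P0-NPCs, Hes1 and Hey2 between P56-NPCs and P0-NPCs, and, of the pathway genes named with such a call, Tle5, Id1 and Nrarp between A-iSCs and ASTs. With all 4 groups in the fit, Hes1 and Hey1 were lost between the suspensions and Hes1 passed between A-iSCs and P0-NPCs (adjusted p = 0.0255). Whether a cause beyond fewer samples or the scaling itself lies behind these changes was not tested.

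Scaling moved the split of all genes between A-iSCs and ASTs from 3550 higher and 4165 lower to 4566 and 2990 under library size alone. The deviations of samples with the same number correlated at -0.38, 0.34 and 0.43 between A-iSCs and ASTs, beside a mean of -0.09 for unlike numbers. In 2 of 3 A-iSC samples the best match was the AST sample of the same number. The labels do not say whether the numbers pair the samples, and these values do not settle it. The main fits used no pairing. With the replicate block, 7944 in place of 7715 genes were called in that comparison, Hes1 passed between A-iSCs and P0-NPCs (adjusted p = 0.0455) and missed between P56-NPCs and P0-NPCs (adjusted p = 0.0514), and Hes5 passed between the suspensions (adjusted p = 0.00725). Depth limits Heyl in ASTs, where 4 fragments in all were found.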

Other observations

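The study's primer list for reverse transcription PCR holds a Hes1 pair that does not match the Hes1 gene models used here. The sequences are shown with the bases that the 2 primers share as reverse complements in capitals.
Hes1 forward: gttgTTTCACACGAGCCGTTCGCGTG
Hes1 reverse: CACGCGAACGGCTCGTGTGAAA
The reverse primer is the exact reverse complement of the forward primer from its base 5 to its end, a run of 22 bases. Neither primer matched any of 141767 GENCODE M21 transcripts, Hes1 included. In the other 17 pairs of the same list, both primers matched a transcript and the longest such shared run was 6 bases. The Hes1 levels above come from the sequencing table and do not involve these primers.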
